A study of Mus musculus with 2 samples.

Results

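Notch signalling passes between neighbouring cells, because the transmembrane ligands of the Jagged and Delta-like families on a cell bind Notch receptors on the next. Binding exposes the receptor to ADAM proteases and then to gamma-secretase, and the freed intracellular domain enters the nucleus, joins the DNA-binding protein RBPJ and Mastermind coactivators, and switches on genes of the HES and HEY repressors. The pathway is known for cell fate decisions in layered epithelia and for the growth and coating of blood vessels. The 10 genes described here are the receptors Notch1, Notch2, Notch3 and Notch4, the ligands Jag1, Jag2, Dll1 and Dll4, and the target genes Hes1 and Hey1. They were chosen by gene name among the spots that were not controls, and comprised 13 of 39429 probes and 10 of 29923 genes on the arrays.

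The study asked which genes change in the ureter when the nuclear receptor gene Pparg is lost from its epithelium. RNA was taken from pools of E18.5 ureters of NMRI mice, a strain kept outbred, and each of 2 two-colour arrays set a Pparg-cKO pool against a control pool of the same sex. Pparg-cKO embryos were Pax2-cre/+; Pparg(fl/fl), and controls were Pparg(fl/?), that is, with 1 floxed allele known and the other not given. Per the study's methods, controls were littermates without the cre transgene. Array 1 held female pools and array 2 male pools, with the dyes exchanged, so that sex, dye orientation and array cannot be told apart. Per the study, Pax2-cre recombines in the nephric duct, the ureteric epithelium and the renal collecting ducts. The floxed allele loses exons 2 and 3 and still gives a transcript. Mesenchyme, muscle, vessels and nerves of the ureter lie outside these domains, and their RNA is in every pool. In a pool of whole ureters, fewer cells of a type and less RNA per cell cannot be told apart.

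Each array carried 4 spots of every probe, a 60-base oligonucleotide. The 5′ ends of the probes behind the main comparisons are shown first, 30 bases of each, to fix which stretch of each transcript was read. Both Notch1 probes are included because they gave opposite results. Positions are those of the array design on mouse build mm9. The Jag1 probe lies at chr2:136907433-136907492 on the minus strand, the Jag2 probe at chr12:114146887-114146946 on the minus strand, the Notch2 probe at chr3:97953914-97953973 on the plus strand and the Notch3 probe at chr17:32257848-32257907 on the minus strand. The brighter Notch1 probe lies at chr2:26319440-26319499 and the dimmer at chr2:26314630-26314689, both on the minus strand. Exon structure was not analysed here.
Jag1: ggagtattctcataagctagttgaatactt
Jag2: ttgtataaattattcaacggctgtcaggcg
Notch2: ccacttgaagtcttgcatagaaatgaacca
Notch3: gcctaatagaaatgtttttaggctgttttt
Notch1, brighter probe: tcctgcagtggagggggccttgagacaggc
Notch1, dimmer probe: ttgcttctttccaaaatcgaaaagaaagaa

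Signals below are the scanner's processed signals, and a log2 ratio is that of Pparg-cKO over control after normexp background correction and loess normalisation. Words of direction follow the value table the authors deposited, which is headed as mutant over control and runs the way of the study's text and tissue sections. The dye labels give the opposite direction on both arrays. Should those labels hold, the names Pparg-cKO and control trade places at every signal, every log2 ratio changes sign, and the sizes and p-values stay. Pparg itself gave signals of 12360 in the Pparg-cKO and 6113 in the control pool on the female array, and of 12930 and 6688 on the male array, and whether its probe lies in the deleted exons was not analysed. The share of spots well above background was between 66.2% and 77.3% over the channels.

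None of the 10 genes met a fold rule modelled on that of the study, which here asked for a change of at least 1.5-fold in the same direction on both arrays and for a processed signal of 100 or more in the brighter channel of each. The study's own intensities were on a larger scale than these signals, so that its threshold of 100 is not the same limit. Of the 10 genes, 8 were bright enough for that rule, and 1.84% of the 14015 genes of that brightness met it. None was called in limma at an adjusted p under 0.05 either, against 0.751% of the 22499 genes tested. The adjusted p of the 10 genes ranged from 0.431 to 0.982. The absence of a call does not show that a gene was unchanged. Before adjustment, 3 of the 10 genes (Notch2, Jag1 and Jag2) had p under 0.05, all with the higher level in Pparg-cKO pools, against 8.51% of all genes in either direction and 4.31% in that direction. That count depended on the processing, with 4 of the 10 genes without the normexp offset, 1 with median centring or the deposited table, and 0 with the scanner's processed signals. The mean log2 ratio of the 10 genes had a median of 0.24, from -0.04 for Notch1 to 0.63 for Jag2, and the median over all genes tested was 0.01. On both arrays the ratio was above 0 for 8 of the 10 genes, against 26.6% of all genes tested, and on both below 0 for none, against 26.2%. It was above 0 for 9 of the 10 on the female array alone, against 48.2%, and for 9 of the 10 on the male array alone, against 52.3%. Both the count of 8 and the female count include Notch3 and Notch4, at only 0.015 and 0.001 on the female array. Notch1 and Dll1 had opposite signs on the arrays, and neither reached 1.2-fold on both, as 1.38% of all genes did in opposite directions.

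**Figure D1:**
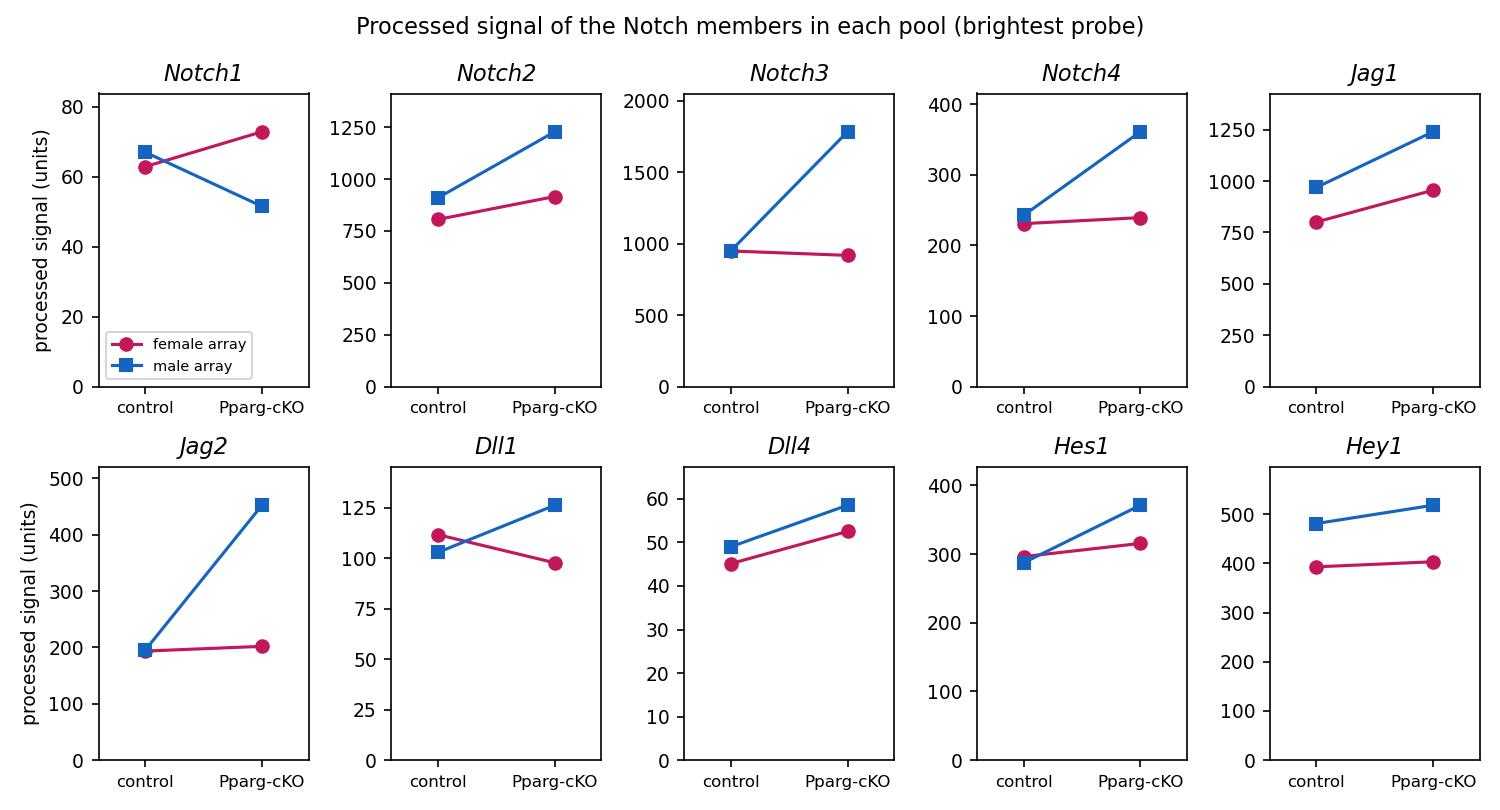
Processed signal (linear scale, units of the scanner) of the brightest probe of each Notch gene in the control and the Pparg-cKO pool, with a line joining the pools of an array (circles, female; squares, male; 1 value per pool, no error bar). The lines run upward or nearly flat on both arrays for most genes, run in opposite directions for Notch1 and Dll1, and pass 1.5-fold on the male array for Notch3 and Jag2, where the male Pparg-cKO pool reaches 1782 and 452.2.

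Among the receptors, Notch2, which is widely expressed in epithelia and mesenchyme, gave signals of 915.8 in the female Pparg-cKO pool, 805.7 in the female control, 1228 in the male Pparg-cKO pool and 910.1 in the male control. Both Pparg-cKO pools were above both control pools. Its log2 ratios were 0.19 and 0.52, a mean of 0.36 ± 0.23 (SD, n = 2 arrays) with a 95% limma interval from 0.03 to 0.68 and an adjusted p of 0.535. The second Notch2 probe had signals between 5.947 and 9.848, was well above background in only 2 of the 4 pools and gave ratios of -0.01 and 0.24.

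Notch3, the receptor of vascular smooth muscle and pericytes, was higher in the Pparg-cKO pool on the male array alone. Its signals were 917.9 in the female Pparg-cKO pool against 948.4 in the control, and 1782 in the male Pparg-cKO pool against 949.8. The other 3 pools thus lay within a narrow band and the male Pparg-cKO pool stood apart from them. The female pair had a log2 ratio of 0.01 and the male pair one of 0.95, with an SD over the spots of the probe, which covers technical error within an array only, of 0.06 and 0.03. The mean of 0.48 ± 0.66 (SD, n = 2) had a 95% limma interval from -0.12 to 1.08, with an adjusted p of 0.679.

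Notch4, a receptor found mainly in endothelium, gave 239.3 and 230.8 in the female Pparg-cKO and control pools and 360.9 and 242.6 in the male pools. Again the male Pparg-cKO pool stood above the other 3. The ratios were 0.00 and 0.55, and limma gave the mean of 0.27 an adjusted p of 0.741.

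Notch1, the receptor with the broadest known role in stratified epithelia, was dim and read differently by its probes. The brighter probe gave 72.9 in the female Pparg-cKO pool and 62.92 in the control, and 51.56 and 67.03 in the male pools, which are log2 ratios of 0.16 and -0.25. The dimmer probe gave 25.06 and 29.39 in the female pools and 50.32 and 27.34 in the male pools, which are ratios of -0.13 and 0.58. Both probes were well above background in all 4 pools, and their signs were opposite on each array. The brighter probe's mean of -0.04 had a 95% limma interval from -0.40 to 0.31 and an adjusted p of 0.982, and these data set no direction for Notch1.

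**Figure D2:**
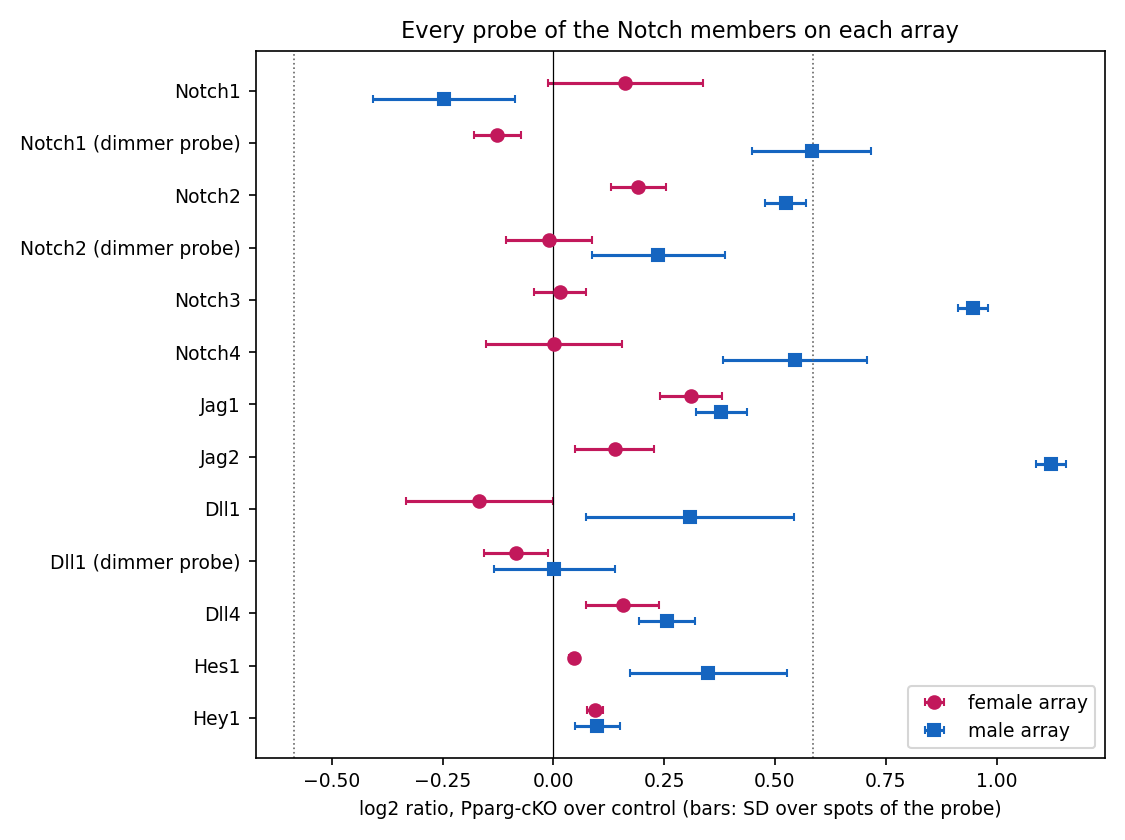
Log2 ratio of Pparg-cKO over control (horizontal axis) for all 13 probes of the 10 genes on the female (circles) and the male array (squares), with bars for the SD over the 3 or 4 kept spots of a probe and dotted lines at 1.5-fold. The male squares of Notch3 and Jag2 lie past 1.5-fold at 0.95 and 1.12 with short bars, and the probes of Notch1 mirror each other.

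Of the ligands, Jag1, the Jagged ligand of epithelia, smooth muscle and endothelium, gave 955.8 and 801 in the female Pparg-cKO and control pools and 1240 and 969.2 in the male pools. The Pparg-cKO pool was the brighter on each array, although the female Pparg-cKO pool lay below the male control. The log2 ratios of 0.31 and 0.38 were close to each other, and their mean of 0.34 ± 0.05 (SD, n = 2) had a 95% limma interval from 0.08 to 0.61. That is 1.27-fold, with an unadjusted p of 0.0211 in limma that became 0.431 on adjustment.

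Jag2, the Jagged ligand known for its part in stratified epithelia and limb ectoderm, had the highest mean ratio of the 10 genes. Its signals were 201.9 and 193.5 in the female pools and 452.2 and 195.4 in the male pools, so both Pparg-cKO pools were above both control pools and the male Pparg-cKO pool was far above the rest. The log2 ratios were 0.14 and 1.12, with an SD over spots of 0.09 and 0.03. The mean of 0.63 ± 0.70 (SD, n = 2) was smaller than the SD between the arrays, with a 95% limma interval from 0.01 to 1.26 and an adjusted p of 0.583.

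Dll1, a ligand of progenitor cells and arterial endothelium, gave 97.72 and 111.6 in the female Pparg-cKO and control pools and 126.2 and 102.9 in the male pools. Its ratios of -0.17 and 0.31 had opposite signs, and its adjusted p was 0.967 in limma. The second Dll1 probe was not well above background in any of the 4 pools.

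Dll4, the ligand of arterial and sprouting endothelium, was dim, at 52.52 and 45.13 in the female pools and 58.53 and 49.01 in the male pools. Both Pparg-cKO pools were above both control pools, and the ratios were 0.16 and 0.26. The mean of 0.21 ± 0.07 (SD, n = 2) had a 95% limma interval from -0.06 to 0.48 and an adjusted p of 0.703.

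The target genes Hes1 and Hey1 had mean log2 ratios of 0.20 and 0.10. Hes1, the transcriptional repressor that many tissues switch on in response to Notch, gave 315.6 and 296.4 in the female pools and 371.2 and 287.4 in the male pools, with ratios of 0.05 and 0.35. Both Pparg-cKO pools were above both control pools, and the mean of 0.20 had a 95% limma interval from -0.12 to 0.51 and an adjusted p of 0.765. Hey1, a related repressor of vessels and heart, gave 403.3 and 393 in the female and 518.2 and 481 in the male pools. Its ratios of 0.09 and 0.10 were alike on the arrays, and the 95% limma interval of its mean ran from -0.17 to 0.36. A rise or a fall of 1.5-fold lies outside that interval, which rests on 2 arrays and on a spread that limma takes from all genes tested. Over the 10 genes, both Pparg-cKO pools lay above both control pools for 4 (Notch2, Jag2, Dll4 and Hes1), against 14.7% of all genes tested, and below them for none, against 19.9%.

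The ratio on the male array was higher than on the female array for 9 of the 10 genes, against 55.2% of all genes tested. The 10 log2 ratios had a median of 0.12 in the female pair of pools and 0.36 in the male pair, and the medians over all genes tested were -0.01 and 0.01. Past 1.5-fold on the male array were 2 of the 8 genes bright enough, Notch3 and Jag2, both higher, against 6.3% of the genes of that brightness. On the female array none was, against 3.05%. The arrays differ in sex and in dye orientation at once, and 1 pair of pools per sex gives no test of that difference.

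**Figure D3:**
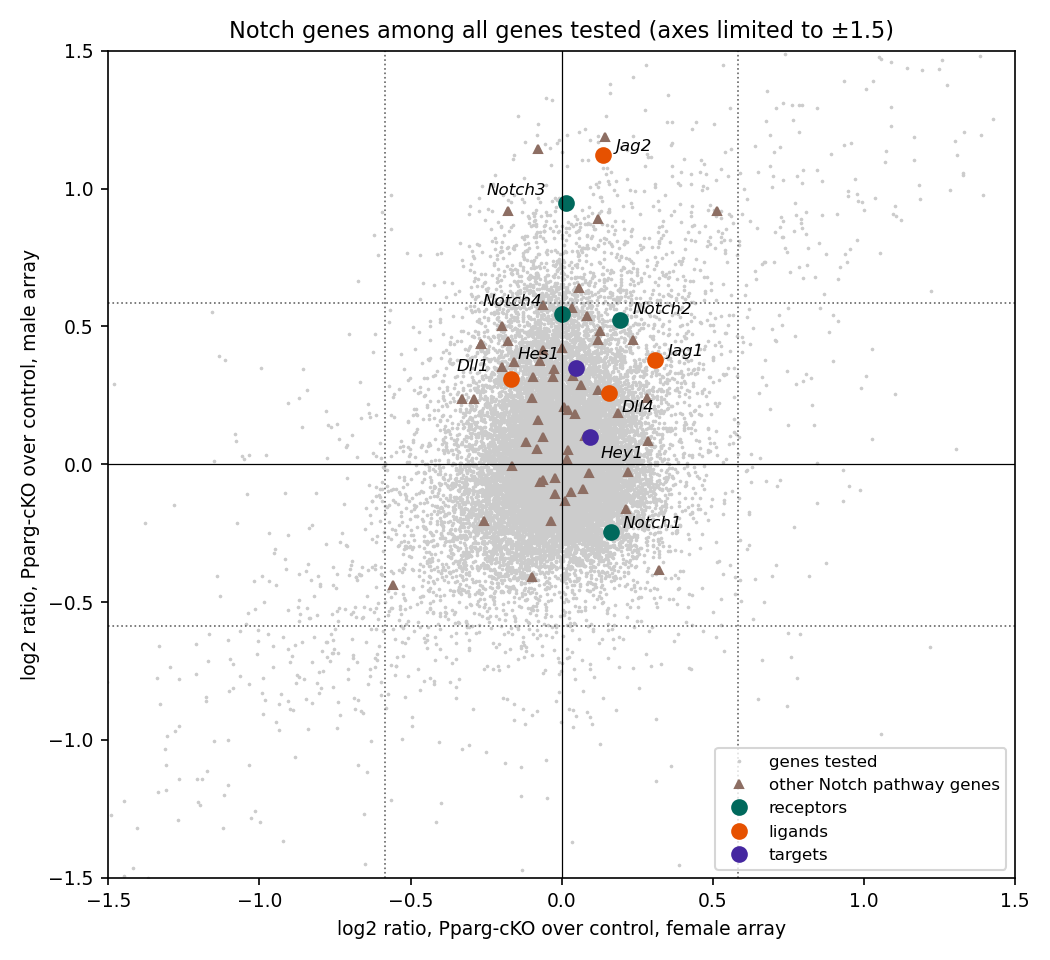
Log2 ratio of Pparg-cKO over control on the female (horizontal) and the male array (vertical) for the 22499 genes tested (grey dots, those within the axes), the other Notch pathway genes (triangles) and the 10 Notch genes (large circles, coloured by role), with dotted lines at 1.5-fold. No large circle enters the upper right corner past both dotted lines, and Notch3 and Jag2 lie high on the vertical axis near 0 on the horizontal.

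The place of a probe along its transcript moved with the ratio on the male array, and several Notch genes have long transcripts. Over 15996 genes tested with a probe to a RefSeq mRNA, the rank correlation of the probe's start in the transcript with the log2 ratio was 0.288 for male and 0.135 for female pools, a description across genes that share the same arrays. Probes starting below base 1000 had a median male ratio of -0.07, and those starting at base 6000 or later had 0.15, with 14.4% of the latter at least 1.5-fold higher on the male array against 2.35% of the former. The probes of Notch2, Notch3 and Notch4 start at bases 10129, 7873 and 6235, and their male ratios of 0.52, 0.95 and 0.55 lay above the upper quartile of that last class, 0.40. The Jag1 probe starts at base 5187, where the upper quartile was 0.37 and its own male ratio 0.38. The Jag2 probe starts at base 3908, where the upper quartile was 0.29 and its own male ratio 1.12. The Hes1 probe starts at base 1388, where the upper quartile was 0.18 and its own male ratio 0.35. The Hey1, Dll4 and Dll1 probes start at bases 2072, 2827 and 3063, in the class of Jag2, and their male ratios were 0.10, 0.26 and 0.31, with Hey1 and Dll4 inside the quartiles and Dll1 just above them. The brighter Notch1 probe starts at base 5898, where the lower quartile was -0.05 and its own male ratio -0.25. The part of probe position in these ratios was not tested.

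**Figure D4:**
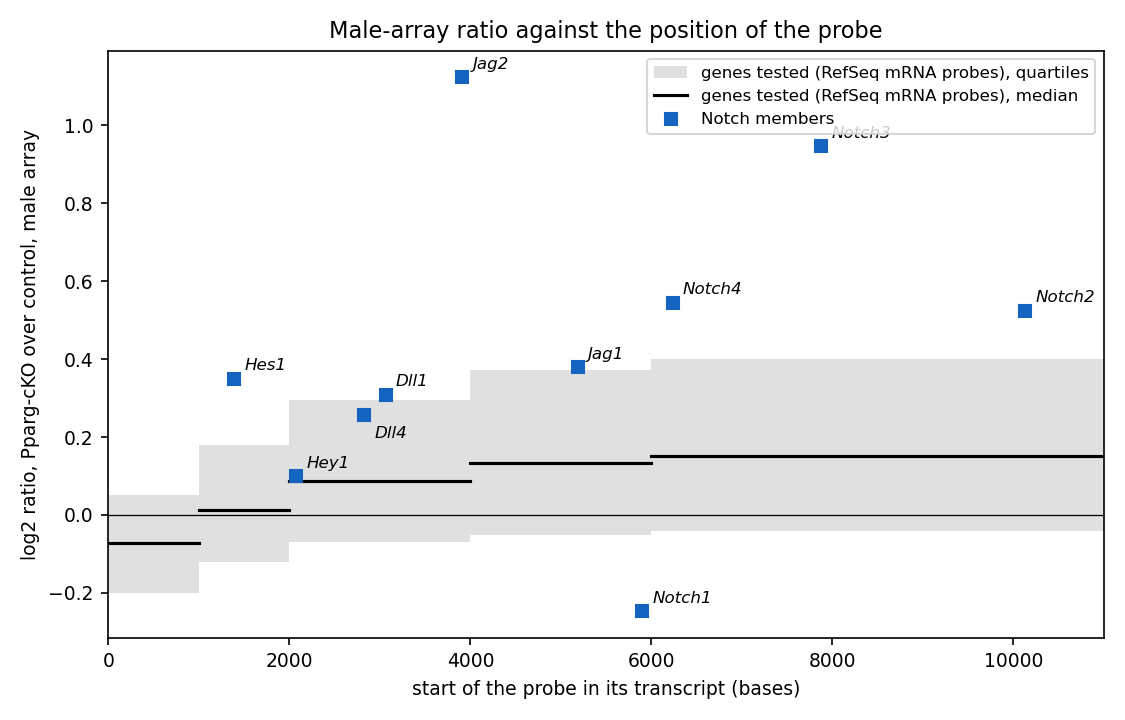
Log2 ratio of Pparg-cKO over control on the male array (vertical) against the start of the probe in its transcript in bases (horizontal), with squares for the 10 Notch genes and, in 5 classes of start, the median (line) and quartiles (grey) of the genes tested with a probe to a RefSeq mRNA. The median climbs from -0.07 to 0.15 over the classes, and Jag2 and Notch3 lie well above the quartiles of their classes while Notch1 lies below.

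Of 61 other genes of the pathway, 60 had a probe under their name and 59 were tested, with Hes3 not well above background and Aph1c unmatched. None met the fold rule, among 50 bright enough, against 1.84% of all genes of that brightness. None was called in limma, against 0.751% of all genes tested. Their median mean log2 ratio was 0.11, with medians of -0.02 in female and 0.24 in male pools. Above 0 on both arrays were 22, against 26.6% of all genes tested, and below 0 on both were 9, against 26.2%. Opposite signs were found for 28, against 47.2%. At an unadjusted p under 0.05 there were 4, of which 3 were higher and 1 lower, against 4.31% and 4.2% of all genes. On the male array 6 of the 50 were at least 1.5-fold higher and 0 at least 1.5-fold lower, against 6.3% and 1.95% of the genes of that brightness.

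The largest mean ratios belonged to Dlk2, Dlk1 and Furin. Dlk2 and Dlk1 encode Delta-like proteins that lack the receptor-activating domain of the canonical ligands, and Furin encodes the protease that cuts Notch receptors on their way to the surface. Dlk2 gave 198.2 and 133 in the female Pparg-cKO and control pools and 280.7 and 143.5 in the male pools, with both Pparg-cKO pools above both controls. Its ratios of 0.51 and 0.92 gave a mean of 0.72 with a 95% limma interval from 0.36 to 1.07, an unadjusted p of 0.00341 and an adjusted p of 0.173. The female ratio alone kept Dlk2 below the fold rule. Dlk1 gave 13030 and 11790 in the female and 20080 and 8877 in the male pools, with ratios of 0.14 and 1.19, and its adjusted p was 0.581. Furin gave 436.3 and 456.5 in the female and 892.4 and 400.4 in the male pools, with ratios of -0.08 and 1.14, so its high mean came from the male array.

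The lowest mean ratios belonged to Dtx4, Adam17 and Dner. Dtx4 encodes a Deltex ubiquitin ligase that acts on Notch, Adam17 a protease able to cut the receptor outside the membrane, and Dner a transmembrane protein described as an atypical Notch ligand. Dtx4 gave 284.8 and 423.1 in the female Pparg-cKO and control pools and 345.2 and 481.4 in the male pools, so both Pparg-cKO pools were below both controls. Its ratios of -0.56 and -0.44 gave a mean of -0.50 with a 95% limma interval from -0.77 to -0.23, an unadjusted p of 0.00534 and an adjusted p of 0.225. Adam17 averaged -0.25 and Dner -0.23, with limma's adjusted p at 0.686 and 0.651.

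By role, the median mean ratio was 0.32 for the 4 receptors, 0.28 for the 4 ligands and 0.15 for Hes1 and Hey1. It was 0.30 for the 4 other ligands, 0.18 for the 5 glycosylation genes, which include the Fringe enzymes that tune ligand choice, and 0.16 for the 20 nuclear cofactors. It was 0.09 for the 14 trafficking and turnover genes, -0.01 for the 9 genes of receptor cleavage with a probe and 0.03 for the 7 other targets tested. The 7 other targets spanned from -0.04 to 0.14, and 6 of the 7 had opposite signs on the arrays, against 47.2% of all genes tested. Only 3 of these targets were bright enough for the fold rule, so the narrow span comes largely from dim probes. Of the cleavage genes, 1 was above 0 in female pools and 6 in male pools.

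**Figure D5:**
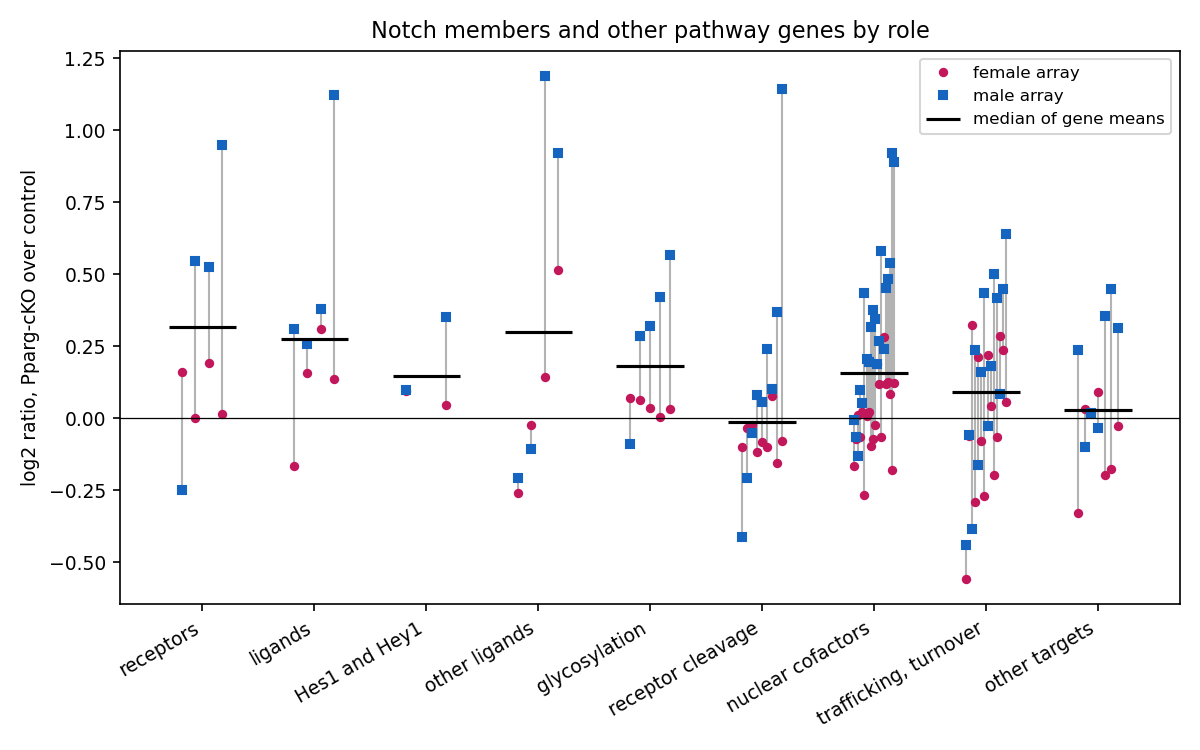
Log2 ratio of Pparg-cKO over control on the female (circles) and the male array (squares) for the 10 Notch genes and the 59 other pathway genes tested, grouped by role, with a grey line joining the arrays of a gene and a black bar at the median of the gene means. The squares lie above the circles for most genes, and the medians run from -0.01 for receptor cleavage to 0.32 for the receptors.

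Markers of the cell types that carry these genes moved as follows. The summed signal of 10 urothelial markers was 81830 in the female Pparg-cKO pool against 109800 in the control, and 99980 against 95530 in the male pools. Without Krt19 the other 9 summed to 67380 against 100800 in the female and 80310 against 87470 in the male pools. In the female pair 3 of the 10 markers were above 0 and in the male pair 5, and 3 were above 0 and 5 below 0 on both arrays. The 3 above 0 were Krt19, Epcam and Cdh1, at mean log2 ratios of 1.00, 0.44 and 0.585. The 5 below 0 were Krt18, Trp63, Upk1b, Upk2 and Upk3a, with Upk1b the lowest at -1.02. The 10 endothelial markers summed to 10900 and 10870 in the female and 12140 and 10990 in the male Pparg-cKO and control pools, with 8 above 0 in the male and 5 in the female pair. The 5 pericyte markers summed to 7071 and 8026 in the female and 7604 and 7817 in the male pools, with Pdgfrb at 0.06 and 0.53 and Rgs5 at -0.39 and -0.27 on the female and male arrays. The 8 smooth muscle markers summed to 104200 and 115500 in the female and 101700 and 116700 in the male pools, lower in Pparg-cKO on each, while 3 of the 8 were below 0 on both arrays, none was above 0 on both and 5 had opposite signs. The 6 mesenchymal markers summed to 46390 and 44720 in the female and 59890 and 37780 in the male pools, and the male difference was that of Col1a1, at 0.14 and 1.07. Without Col1a1 the other 5 summed to 17740 and 17420 in the female and 18220 and 18020 in the male pools, and their male ratios ran from -0.27 for Aldh1a2 to 0.47 for Gata2, with 3 of the 5 above 0. Leukocyte markers summed to between 3009 and 3280 in every pool and Schwann and nerve markers to between 5494 and 6180. Of 5 nephron markers Umod and Slc12a1 were not well above background, and the summed signal of all 5 was between 73.44 and 155.2. The part of cell composition in the Notch ratios was not tested.

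Promoter sequence was read from RefSeq on GRCm38.p6, from 250 bases before to 50 bases after the gene start, for the 8 of the 10 genes that matched. Hes1 and Hey1 did not match. The letters searched, on both strands, were TGGGAA, the core of the RBPJ site, CACGTG, the E-box, CACGCG and CACGAG, bound by HES and HEY proteins, and a DR1, which is AGGTCA repeated with 1 base between and is bound by PPARG with RXR. TGGGAA was in 0 of the 9 promoters of these 8 genes and in 25.6% of all 32851 promoters. The E-box was in 0 of the 9 and in 7.15% of all, and the DR1 was in 0 of the 9 and in 0.0396% of all. CACGCG was in 5 of the 9, those of Notch2, Jag1, Jag2, Dll4 and Dll1, and in 9.27% of all, and CACGAG was in that of Notch3 alone and in 6.47% of all. A match is a description of letters and not a bound site.

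The 250 bases before the start of Jag1 (chr2:137116521-137116770, minus strand) and Notch2 (chr3:98013288-98013537, plus strand) are shown because both genes had a higher level in Pparg-cKO on each array at an unadjusted p under 0.05, by the processing described here. Jag2 met this too, and is not shown because its match lies after the gene start. Capitals mark CACGCG or its reverse complement, found at 2 places before Jag1 and at 1 before Notch2.
Jag1: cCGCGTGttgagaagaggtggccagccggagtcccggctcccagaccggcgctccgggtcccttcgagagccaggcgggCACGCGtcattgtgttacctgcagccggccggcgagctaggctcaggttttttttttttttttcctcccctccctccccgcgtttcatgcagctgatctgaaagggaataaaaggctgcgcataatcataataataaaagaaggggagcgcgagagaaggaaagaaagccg
Notch2: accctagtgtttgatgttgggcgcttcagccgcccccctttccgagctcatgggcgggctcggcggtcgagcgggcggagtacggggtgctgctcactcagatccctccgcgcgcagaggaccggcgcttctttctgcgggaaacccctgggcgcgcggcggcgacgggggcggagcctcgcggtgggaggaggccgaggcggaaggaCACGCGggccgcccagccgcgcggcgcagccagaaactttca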

How the data were processed

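Per the file headers, the scanner files, made with Agilent Feature Extraction 10.7.3.1 per the submitters' processing notes, held spot intensity on a linear scale: mean signal, median local background and a processed signal corrected for background and dye. The same files held the log10 of red over green processed signal, per the file headers. In the value table the authors deposited, each probe had, per array, a signed fold change, a score without values between -1 and 1, computed by them from normalised signals. Both arrays lay on the same slide. Mean signals were corrected with normexp (offset 50) and normalised by loess with control spots at weight 0 (limma 3.58.1, R 4.3.3). Flagged spots (2.87% and 3.24%) were dropped, and no spot was saturated. Kept spots were averaged, and a gene was read by its brightest probe. limma fitted the mean of the 2 log2 ratios, adjusted by Benjamini-Hochberg over the 22499 genes detected above background on each array in either channel, with 1 residual and 4 prior degrees of freedom. On simulated arrays limma made more false calls than the nominal rate. How often it calls changes as small as those of the Notch genes was not tested. In these data some larger changes were not called. Upk1b, at a mean log2 ratio of -1.02, had an adjusted p of 0.109 in limma, and Krt19, at 1.00, had 0.121. Pparg, at 0.97, was called, with an adjusted p of 0.0373. The pairing of pools lies within the ratio, and pools are the replicates. The p-values and intervals rest on the spread between these arrays, combined with a prior spread that limma takes from all genes tested. With 4 prior against 1 residual degrees of freedom, the prior spread weighs more. The number of arrays limits the precision.

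Named were all 10 genes and, of the other pathway genes, those past the fold rule or called in limma, those 1.5-fold changed in opposite directions (none), and the 3 largest and 3 smallest mean ratios. Genes 1.2-fold changed in opposite directions are also named, a size chosen after their values were seen. The genes and lists were chosen with earlier results of these data known. Alternatives were the scanner's processed signals, normexp without offset, median centring, the deposited table, no filter on dim probes, the median over a gene's probes, flagged spots kept, each array alone and a lower minimum signal.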

Additional observations from a re-analysis of the deposited data

Results flagged for a closer look

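Of the 69 Notch and other pathway genes tested, 3 moved at least 1.2-fold in opposite directions on the female and the male array, against 1.38% of all genes tested, and none of them was among the 10 Notch genes. Mib1, a ubiquitin ligase that readies ligands for signalling, had log2 ratios of 0.32 in the female and -0.38 in the male pair of pools, a male minus female difference of -0.71. Dtx2, a Deltex ubiquitin ligase, had -0.27 and 0.43, a difference of 0.70. Tle3, a Groucho corepressor used by HES proteins, had -0.27 and 0.43, a difference of 0.70. With 1 pair of pools per sex these differences were not tested, and sex, dye orientation and array cannot be told apart.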

How the results depend on the processing

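No Notch gene met the fold rule or was called in limma under any alternative that used both arrays, and their adjusted p was 0.204 or above throughout. Over 7 such alternatives, 68 of 70 ratios kept their direction. Part of that count was fixed in advance. Dropping the filter on dim probes leaves every ratio as it was, and the median over probes does so for genes with a single probe. The exceptions were both for Notch1. With median centring Notch1 was at 0.016, and the cause was not tested. With the median over its probes Notch1 was at 0.093, because the dimmer probe, at a mean of 0.228, enters. With each array alone, the Notch genes past 1.5-fold numbered 0 (female) to 2 (male), other pathway genes 0 to 6, and all genes 444 (39.6% of them higher) to 1253 (77.0% higher), against 258 on both arrays, of which 43.0% were higher. Median centring gave 217, of which 53.0% were higher. The 169 genes called in limma became 571 without the normexp offset, where 1 other pathway gene (Dlk2) was called, 94 without the filter on dim probes, and 0 with the deposited table, which had 2101 at an unadjusted p under 0.05. A minimum signal of 40, chosen after seeing the data because the study's intensities were on a larger scale, gave 318 genes past the fold rule and 0 Notch genes. Notch genes at an unadjusted p under 0.05 numbered 3, or 0 to 4 over the alternatives. The mean ratio was above 0 for 9 or 10 of the Notch genes under every alternative. Signals under 100 left Notch1 and Dll4 too dim for the fold rule.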
